A study of Mus musculus with 6 samples.

Results

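The genes described here encode the subunits of oxidative phosphorylation: the respiratory chain complexes I to IV, the electron carrier cytochrome c, and complex V, the ATP synthase. They were chosen by symbol alone, from probe sets annotated with a single gene symbol that starts with Nduf, Uqcr, Atp5 or Cox4 to Cox8, or that is one of Sdha, Sdhb, Sdhc, Sdhd, Cyc1 and Cycs. The rule gave 81 subunit genes of the 12393 genes tested, and a further 8 assembly factors, with symbols starting Ndufaf or Uqcc, were kept apart from them. Of the 81, 34 belong by symbol to complex I, 4 to complex II, 9 to complex III, 16 to complex IV, 17 to complex V, and Cycs is cytochrome c. Ndufa4 was counted in complex I by its symbol, although its product is assigned to complex IV, and Cox7a2l encodes a factor that joins complexes into supercomplexes rather than a core part of complex IV.

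Oxidative phosphorylation is the main source of ATP in hepatocytes, the parenchymal cells of the liver. Complex I and complex II pass electrons from NADH and succinate to ubiquinone, complex III passes them on to cytochrome c, and complex IV passes them to oxygen. The protons pumped on the way drive complex V, which makes ATP. Nearly all subunits are encoded in the nucleus and imported, and a few catalytic ones are encoded in mitochondrial DNA.

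The values come from 6 Affymetrix expression arrays of primary mouse hepatocytes, 3 from Alb/AEG-1 mice and 3 from wild-type mice. Alb/AEG-1 mice carry a transgene for AEG-1, the product of the gene Mtdh, that is overexpressed specifically in hepatocytes, and the wild-type mice lack it. Both genotypes were of mixed B6/CBA strain, the cells of both were plated on collagen and collected 24 h later, and no treatment was given. Beyond the name of the line, its promoter, the age and sex of the mice, the species of the transgene and the number of lines are not stated by the labels. The labels call the arrays biological replicates without saying whether each came from its own animal, so the p-values reflect only how far these particular samples vary.

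Mtdh was higher on the transgenic arrays, as the labels state. Its brightest probe set read 10.72, 10.40 and 10.81 in transgenic hepatocytes and 8.75, 8.78 and 8.64 in wild-type hepatocytes, a difference of 1.92 log2 units (SE 0.10, 3.79-fold, adjusted p = 2.04e-05 by limma with Benjamini-Hochberg adjustment). Of the other 5 Mtdh probe sets, 1 was also called when all probe sets were tested, at 0.24 (adjusted p = 0.0495), and the others, from -0.27 to 0.0046, were not. All 8 hepatocyte markers (Alb and Hnf4a among them) were measured and none was called, with differences from -0.068 to 0.064 and summed log2 values of 109.2 to 109.5 on transgenic and 109.3 to 109.6 on wild-type arrays. The summed log2 values of 12 Kupffer cell and macrophage markers were 82.1 to 82.7 on transgenic arrays and 79.3 to 80.8 on wild-type arrays, with 3 members called higher (Ptprc, Marco and C1qc), 1 called lower (Cd14) and 2 under the array median of 5.63. The sums of 8 sinusoidal endothelial markers were 46.5 to 47.2 on transgenic and 45.0 to 45.8 on wild-type arrays, with 2 called higher (Clec4g and Kdr) and 3 under the array median. The sums of 8 stellate cell markers were 43.1 to 43.4 on transgenic and 42.4 to 43.3 on wild-type arrays, with 0 called and 5 under the array median. For 4 cholangiocyte markers the sums were 22.3 to 22.4 on transgenic and 20.4 to 20.7 on wild-type arrays, Epcam alone being called, and 3 were under the array median. All 6 markers of striated muscle and brown fat were under the array median and none was called. The part of these other cell types in the results below was not tested. In bulk samples, fewer cells of a type and less RNA per cell cannot be told apart, and RMA equalises the arrays, so every value is relative to the other transcripts on its array.

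Transcripts of the 81 subunits differed little between transgenic and wild-type hepatocytes. By brightest probe set, the differences, transgenic minus wild type, ran from -0.18 to 0.17 on the log2 scale, at most 1.13-fold. Their median was -0.036, beside 0.010 over all genes tested. In size the median difference was 0.056, beside 0.103 over all genes. The means were lower in transgenic cells for 55 subunits and higher for 26 (32.1% higher, beside 53.1% of all genes). A gene was called where its adjusted p was under 0.05: limma called 0 of the 81 subunits, against 15.9% of all genes tested (1967 of 12393, 6.83% higher and 9.05% lower).

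That count of 0 depends on how the spread between arrays was estimated. At an unadjusted p under 0.05, limma gave 9 of the 81 subunits, 3 higher and 6 lower, against 28.9% of all genes. The 3 were Ndufs7, Cox7a2l and Atp5g1, and the 6 were Ndufab1, Ndufa6, Ndufa7, Uqcr11, Uqcrc2 and Atp5pb. When limma's prior was allowed to follow signal level (the intensity trend), 3 subunits were called higher and 12 lower, against 21.1% of all genes in either direction and 12.2% lower. Of 1207 other genes with a mean of 10 or more, 255 were called higher and 307 lower with the trend. Without moderation of the spread between genes, 3 were called higher and 6 lower, against 10.3% of all genes. The sizes are the same under these fits, so no subunit exceeds 1.13-fold by its brightest probe set. Another probe set of Ndufa12, described below, reached 1.27-fold. The median 95% interval reached 0.125 log2 units to either side of the difference. For 79 of the 81 subunits the interval lay within 1.3-fold of no difference, and for all 81 within 1.5-fold. Cox7a1 and Cox8b had the wider ones. Among all 12393 genes tested it lay within 1.3-fold for 9075 and within 1.5-fold for 11510.

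**Figure D1:**
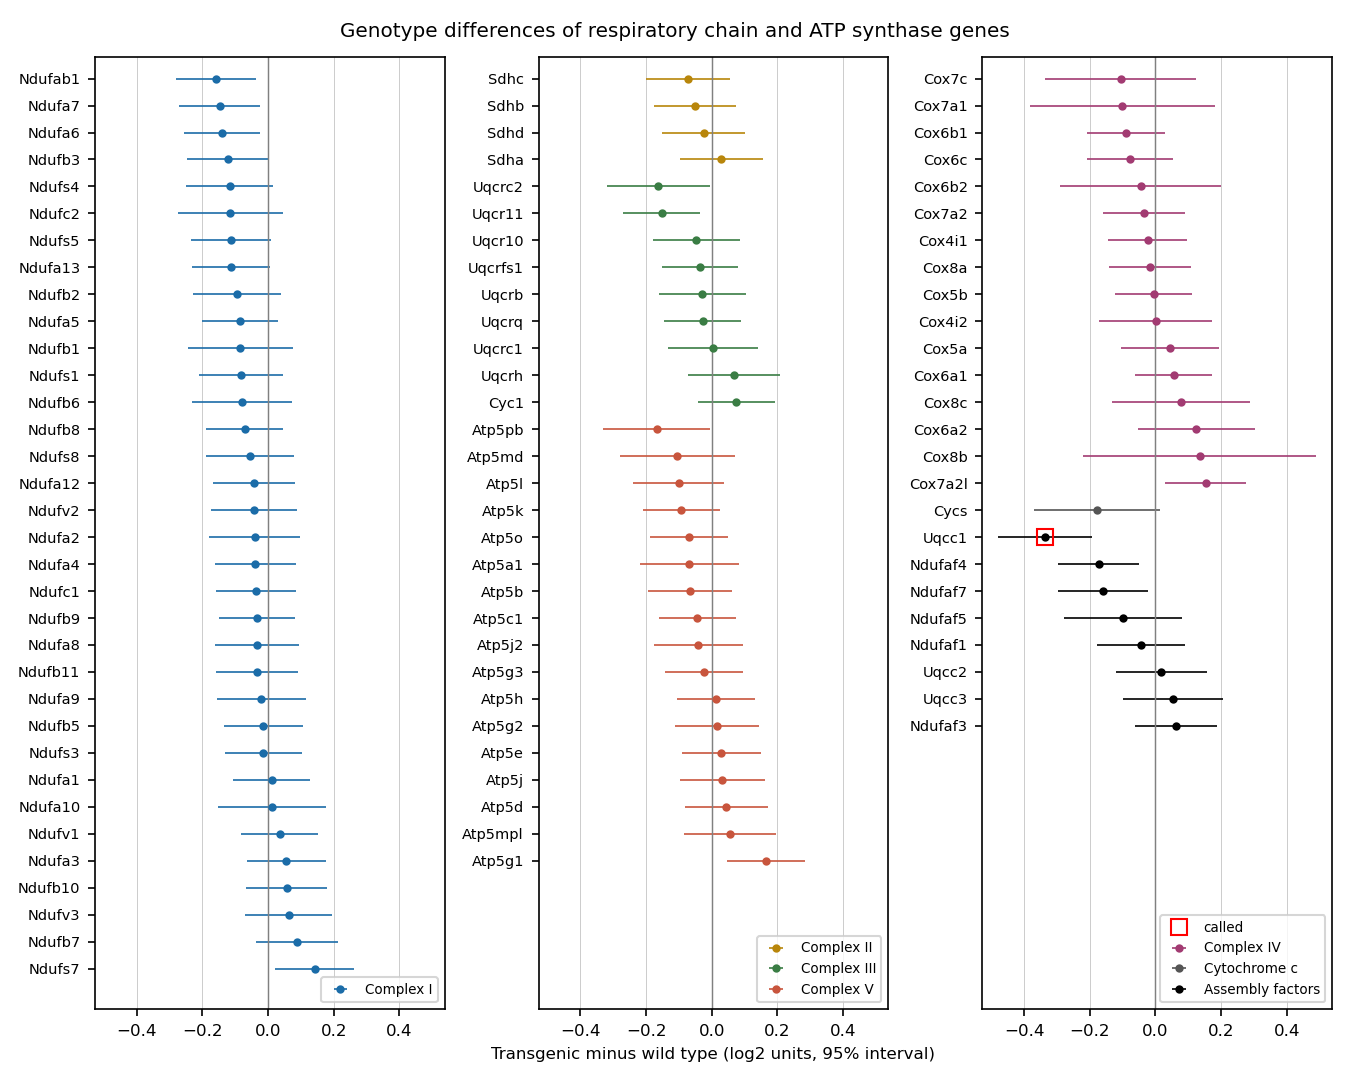
Difference of each subunit and assembly factor, transgenic minus wild type, in log2 units with the 95% limma interval (3 arrays per genotype); colours mark the complexes and the red square marks a called gene. Subunit differences lie between -0.18 and 0.17, and the called gene is the assembly factor Uqcc1 at -0.34.

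Complex I takes electrons from NADH and had the most members. None of its 34 genes was called, 26 had the lower mean in transgenic cells, and the median difference was -0.042 (range -0.16 to 0.14). For 14 of them (41.2%), 11 lower and 3 higher, all transgenic arrays lay on one side of all wild-type arrays. In either direction this held for 34.5% of all genes and for 58.5% of other genes with a mean of 10 or more. Among the 6 nuclear genes of the catalytic core measured (Ndufs1, Ndufs3, Ndufs7, Ndufs8, Ndufv1 and Ndufv2) the median was -0.028 (range -0.082 to 0.14), and among the other 28 members it was -0.042. Ndufs7, which carries the last iron-sulfur cluster before ubiquinone, read 11.28, 11.28 and 11.22 in transgenic hepatocytes and 11.11, 11.09 and 11.14 in wild-type hepatocytes. Every transgenic array was above every wild-type array, and the difference was 0.14 (SE 0.052, adjusted p = 0.112, and 0.00966 with the intensity trend). Ndufv1, which binds NADH, differed by 0.036 (95% interval -0.082 to 0.15).

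By their brightest probe sets, the accessory subunits with the smallest p were lower in transgenic cells. Ndufab1, the mitochondrial acyl carrier protein, read 11.76, 11.78 and 11.83 in transgenic hepatocytes and 11.94, 11.94 and 11.98 in wild-type hepatocytes. Its groups did not overlap, and the difference was -0.16 (SE 0.053, adjusted p = 0.0822, and 0.00327 with the trend). Its other probe sets gave -0.075 and 0.18, and with the 3 averaged the difference of Ndufab1 was -0.018 (adjusted p = 0.857). Ndufa6, an accessory subunit that docks an acyl carrier protein, read 11.67, 11.69 and 11.66 in transgenic hepatocytes and 11.82, 11.79 and 11.83 in wild-type hepatocytes. Here too all transgenic arrays were below all wild-type arrays, with a mean difference of -0.14 (adjusted p = 0.105, and 0.00564 with the trend). Ndufa7, another accessory subunit, read 11.94, 11.93 and 11.97 in transgenic hepatocytes and 12.13, 12.05 and 12.10 in wild-type hepatocytes. The groups again did not overlap, at -0.15 (adjusted p = 0.107, and 0.00572 with the trend). Ndufb3, Ndufs5 and Ndufa13, all accessory subunits, were the further complex I genes called lower with the trend, at -0.12, -0.11 and -0.11. Ndufa4, the member of this symbol group with the highest mean signal, read 13.01, 12.99 and 13.02 in transgenic hepatocytes and 13.04, 13.00 and 13.09 in wild-type hepatocytes, and its groups overlapped.

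Complex II is succinate dehydrogenase, which also works in the tricarboxylic acid cycle, and all 4 of its subunits are nuclear and were measured. None had an unadjusted p under 0.05. Sdha, the flavoprotein that oxidises succinate, read 12.19, 12.23 and 12.12 in transgenic hepatocytes and 12.16, 12.15 and 12.14 in wild-type hepatocytes (difference 0.029, 95% interval -0.097 to 0.15). Sdhb, the iron-sulfur subunit, read 12.38, 12.42 and 12.35 in transgenic hepatocytes and 12.48, 12.40 and 12.42 in wild-type hepatocytes (difference -0.050, 95% interval -0.18 to 0.075). The groups overlapped for both of these genes. Sdhc, a membrane anchor, read 10.18, 10.12 and 10.17 in transgenic hepatocytes and 10.22, 10.28 and 10.18 in wild-type hepatocytes. All its transgenic arrays lay below the wild-type arrays, by a margin in the third decimal at the closest pair, and the difference was -0.072 (adjusted p = 0.451). Sdhd, the other anchor, read 11.48, 11.48 and 11.51 in transgenic hepatocytes and 11.53, 11.45 and 11.55 in wild-type hepatocytes, with overlapping groups and a difference of -0.024.

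Complex III hands electrons from ubiquinol to cytochrome c, and 6 of its 9 genes had the lower mean in transgenic cells (median -0.029, range -0.16 to 0.075). Uqcr11, a small subunit, read 12.50, 12.46 and 12.50 in transgenic hepatocytes and 12.65, 12.63 and 12.65 in wild-type hepatocytes. Its groups were apart by more than their own spread, at -0.15 (SE 0.051, adjusted p = 0.0846, and 0.00197 with the trend). Uqcrc2, one of the core proteins, read 12.04, 12.03 and 12.14 in transgenic hepatocytes and 12.12, 12.27 and 12.30 in wild-type hepatocytes, a difference of -0.16 (adjusted p = 0.161, and 0.0213 with the trend). The groups overlapped for Uqcrc2, since wild-type replicate 1 lay below the highest transgenic array. Cyc1, the cytochrome that reduces soluble cytochrome c, read 12.17, 12.20 and 12.19 in transgenic hepatocytes and 12.12, 12.12 and 12.09 in wild-type hepatocytes. It was higher on every transgenic array, by 0.075 (adjusted p = 0.379, and 0.0499 without moderation). Uqcrfs1, the Rieske iron-sulfur protein, differed by -0.036 (95% interval -0.15 to 0.080). Uqcrb, the member with the highest mean signal, read 13.91, 13.90 and 13.94 in transgenic hepatocytes and 13.96, 13.87 and 14.00 in wild-type hepatocytes, and its groups overlapped.

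Cytochrome c is the soluble carrier between complexes III and IV. Cycs read 12.41, 12.35 and 12.54 in transgenic hepatocytes and 12.46, 12.65 and 12.72 in wild-type hepatocytes, the lowest difference among the subunits at -0.18 (SE 0.083, 95% interval -0.37 to 0.014, adjusted p = 0.204, and 0.0412 with the trend). The groups overlapped on this probe set. Another Cycs probe set gave -0.19 without overlap (adjusted p = 0.0813 by limma over all probe sets), and the dimmest gave -0.12 with overlap. On the brightest probe sets of Cycs, Uqcrc2 and Atp5pb alike, replicate 1 was the lowest wild-type array.

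Complex IV reduces oxygen, and many of its subunits come as a widely expressed form and a form known from muscle, testis or hypoxic cells. None of its 16 genes was called, 9 had the lower and 7 the higher mean in transgenic cells, and the median was -0.011 (range -0.11 to 0.15), or 0.023 without transgenic replicate 1. Transgenic and wild-type arrays were fully apart for 3 genes (18.8%), 2 higher and 1 lower, against 34.5% of all genes. Cox7a2l, which links complex IV to complex III, read 10.68, 10.65 and 10.66 in transgenic hepatocytes and 10.52, 10.46 and 10.55 in wild-type hepatocytes. Every transgenic array was above every wild-type array, and the difference was 0.15 (SE 0.053, adjusted p = 0.0959, and 0.0103 with the trend). Cox6a1, the member with the highest mean signal and the liver form of its subunit, read 14.04, 14.03 and 14.06 in transgenic hepatocytes and 14.01, 13.98 and 13.98 in wild-type hepatocytes. It too was higher on all transgenic arrays, by 0.055 (adjusted p = 0.532). Cox6b1, the widely expressed form that sits between the monomers of the complex IV dimer, gave -0.091 with non-overlapping groups (adjusted p = 0.296, and 0.0432 with the trend).

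The isoform pairs of complex IV gave no called difference on either side. For the widely expressed forms the differences were -0.024 for Cox4i1, 0.044 for Cox5a, -0.0056 for Cox5b, -0.034 for Cox7a2 and -0.017 for Cox8a. For the forms known from muscle, testis or hypoxic cells they were 0.00028 for Cox4i2, 0.12 for Cox6a2, -0.045 for Cox6b2, -0.10 for Cox7a1, 0.13 for Cox8b and 0.078 for Cox8c. Cox4i2, Cox6b2, Cox7a1 and Cox8b had mean values under the array median of 5.63, where arrays measure expression poorly, and their intervals were among the widest. Cox7c is widely expressed, but the probe sets that name it alone also read under the array median, so its difference of -0.11 (95% interval -0.34 to 0.12) says little about that subunit. Those 5 genes were the subunits below the array median. Cox6c, which has no such pair, differed by -0.077.

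Complex V turns the proton gradient into ATP through a rotating membrane ring and a catalytic F1 head. None of its 17 genes was called, 10 had the lower and 7 the higher mean in transgenic cells, and the median was -0.041 (range -0.17 to 0.17). The 5 genes of the F1 head (Atp5a1, Atp5b, Atp5c1, Atp5d and Atp5e) had a median of -0.043 and lay between -0.069 and 0.045. Atp5b, the catalytic subunit, differed by -0.065 (95% interval -0.19 to 0.062). Atp5g1, Atp5g2 and Atp5g3 encode the same ring protein with different import signals. Atp5g1 read 12.46, 12.44 and 12.40 in transgenic hepatocytes and 12.29, 12.25 and 12.27 in wild-type hepatocytes. It had the highest difference of all subunits, 0.17 (SE 0.051, 1.12-fold, adjusted p = 0.0660, and 0.00131 with the trend), and its groups did not overlap. Atp5g2 differed by 0.016 (95% interval -0.11 to 0.14). Atp5g3, the complex V member with the highest mean signal, read 13.52, 13.48 and 13.47 in transgenic hepatocytes and 13.53, 13.50 and 13.51 in wild-type hepatocytes, with overlapping groups and a difference of -0.023.

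The stalk that holds the head against the ring includes Atp5pb (subunit b). Atp5pb read 12.65, 12.53 and 12.67 in transgenic hepatocytes and 12.67, 12.84 and 12.84 in wild-type hepatocytes, a difference of -0.17 (SE 0.071, adjusted p = 0.163, and 0.0203 with the trend). The groups did not overlap, but wild-type replicate 1 lay barely above the highest transgenic array. The other stalk genes Atp5h, Atp5j and Atp5o gave 0.013, 0.033 and -0.069. Atp5k, a small subunit involved in dimer formation, was the further complex V gene called lower with the trend, at -0.093 (adjusted p = 0.0441 with it and 0.279 without it).

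**Figure D2:**
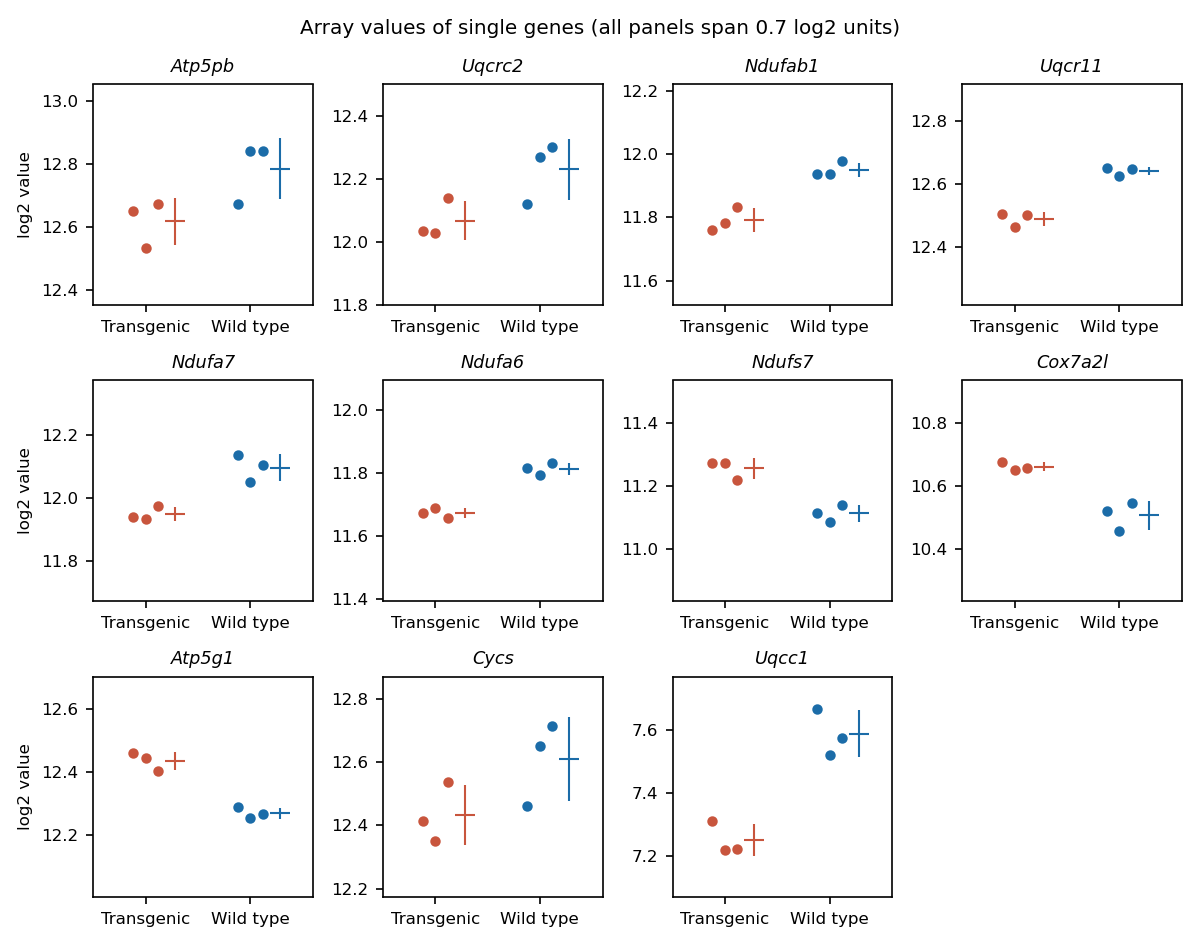
Array values of the subunits with an unadjusted p under 0.05, of Cycs and of the assembly factor Uqcc1, in log2 units (points are arrays, the cross is the mean with its SD, n = 3 per genotype, and all panels span 0.7 log2 units). Ndufs7, Cox7a2l and Atp5g1 lie higher on all transgenic arrays, and for Atp5pb, Uqcrc2 and Cycs wild-type replicate 1 lies among or next to the transgenic arrays.

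Across all 81 subunits, transgenic and wild-type arrays were fully apart for 27 (33.3%), 8 higher and 19 lower, against 34.5% of all genes. Among the 73 subunits with a mean of 10 or more the share was 37.0%, against 58.5% of 1207 other genes past that cut. These sets were not matched in level, with median levels of 12.14 for the subunits and 11.11 for the other genes. Each array's median over the members, after subtracting each gene's mean over the 6 arrays, placed the genotypes close together. Over all subunits it was -0.023, -0.018 and -0.0086 on transgenic arrays and 0.019, -0.0055 and 0.029 on wild-type arrays. The groups were next to each other without overlap, and the gap between the closest arrays was smaller than the range within either genotype. For complex I it was -0.028, -0.019 and -0.021 on transgenic arrays and 0.015, 0.0081 and 0.049 on wild-type arrays, again without overlap. For complexes II, III, IV and V the array medians of the genotypes overlapped, and for the assembly factors the closest arrays stood at -0.017 (transgenic) and -0.015 (wild type). No test was made of these medians, because the members share their arrays.

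**Figure D3:**
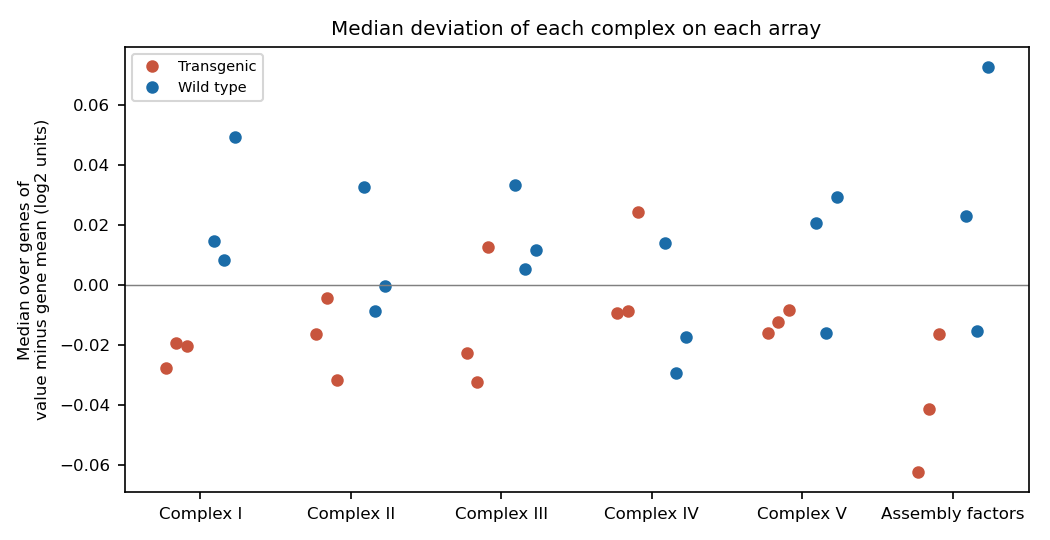
Median over the genes of each complex of the array value minus the gene's mean over 6 arrays (log2 units), one point per array, transgenic left of wild type. The complex I points of the transgenic arrays, -0.028 to -0.019, all lie under those of the wild-type arrays, 0.0081 to 0.049, and the other complexes overlap.

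The subunit probe sets were bright and repeated closely between arrays of one genotype. The median residual SD was 0.039 for the subunits and 0.091 for all genes. With a prior common to all genes the median SE of a subunit was 0.054, and with the intensity trend it was 0.036. When only the 6197 genes at or above the median level were tested, 3 subunits were called higher and 4 lower of 76 left, against 37.2% of those genes. Of 1207 other genes with a mean of 10 or more, limma called 26.1%, and of the 73 subunits past that cut it called 0. The sets were not matched in level (medians 11.11 and 12.14), and the difference between the shares was not tested. The median size of the difference was 0.055 in the 73 subunits and 0.108 in those other genes.

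**Figure D4:**
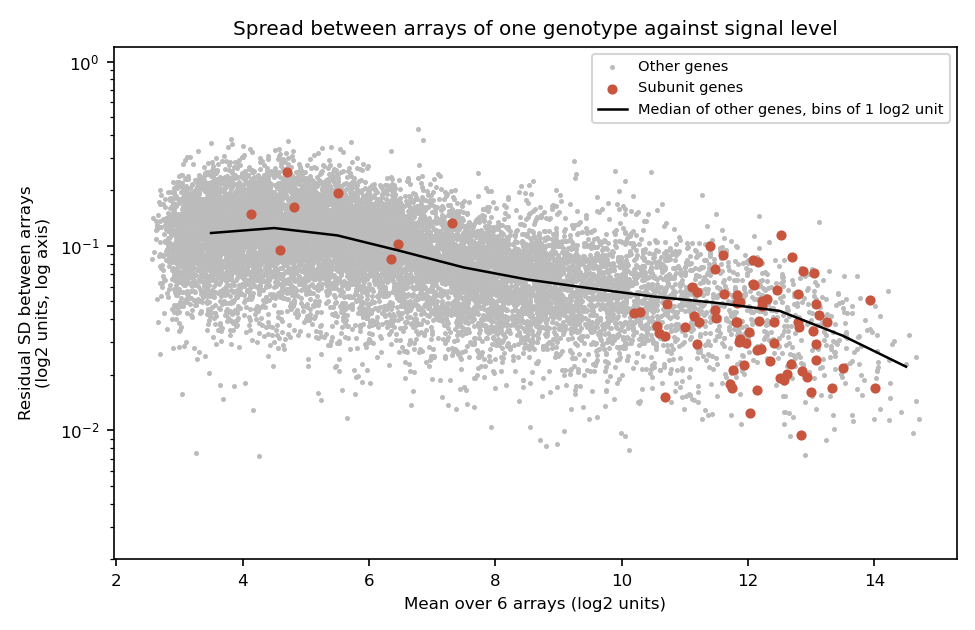
Residual SD between arrays of one genotype (log2 units, log axis) against the mean over 6 arrays (log2 units) for the subunits and all other genes; the line is the median of the other genes in bins of 1 log2 unit. Most subunits lie at a mean of 10 or more, where the spread is small, and their median residual SD is 0.039.

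Many members have several probe sets, and these did not always give 1 answer. Of 48 members with several probe sets, 30 had all of them on the same side of 0 and 18 did not. Among the 18, the opposing probe sets of Atp5c1, Cox8a and Uqcrq all read under the array median. When all 20380 probe sets with 1 symbol were tested, 12.6% were called, and 5 of the 165 member probe sets were, no gene having more than 1. One is the probe set that represents Uqcc1, described below. Ndufc2, a membrane subunit of complex I, had a dimmer probe set called lower, at -0.21 (adjusted p = 0.0458), beside -0.12 for its brightest. Atp5pb had a dimmer one called lower, at -0.24 (adjusted p = 0.0295), and Ndufs7 a dimmer one called higher, at 0.22 (adjusted p = 0.0481), both on the side of their brightest. Ndufa12, an accessory subunit of complex I, had a called probe set on the other side of 0 from its brightest. One of its 4 read 11.90, 12.01 and 11.98 in transgenic hepatocytes and 11.64, 11.52 and 11.67 in wild-type hepatocytes (difference 0.35, adjusted p = 0.0108). Another read 11.65, 11.59 and 11.66 in transgenic hepatocytes and 11.78, 11.80 and 11.89 in wild-type hepatocytes (difference -0.19, adjusted p = 0.0819). The brightest gave -0.043 and the dimmest -0.067, so no direction can be given for Ndufa12. Ndufab1 and Ndufb9, another accessory subunit, each had a probe set at 0.18 with an unadjusted p under 0.05 (adjusted p = 0.137 for Ndufab1 and 0.142 for Ndufb9), against -0.16 and -0.034 for their brightest. Those probe sets at 0.18 read under the array median, at 2.78 to 3.10 for Ndufab1 and 4.02 to 4.32 for Ndufb9.

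Assembly factors build the complexes and are not part of them. Of the 8 with Ndufaf or Uqcc symbols, limma called 1 lower and 0 higher, against 9.05% and 6.83% of all genes. Their median difference was -0.071 (-0.12 without transgenic replicate 3, and -0.032 without wild-type replicate 3). Uqcc1, needed to make the mitochondrially encoded cytochrome b of complex III, read 7.31, 7.22 and 7.22 in transgenic hepatocytes and 7.67, 7.52 and 7.57 in wild-type hepatocytes. The groups did not overlap; the means were 7.25 ± 0.051 in transgenic and 7.59 ± 0.074 in wild-type hepatocytes (SD, n = 3 each), and Uqcc1 fell by 0.34 on the log2 scale (SE 0.062, 95% interval -0.48 to -0.19, 1.26-fold, adjusted p = 0.00888). Uqcc1 was called under all 18 alternatives tried, with adjusted p between 0.00131 and 0.0371. These include leaving out isoforms of other tissues, which reuses the main fit and could not change this call. Its dimmer probe set gave -0.19 (adjusted p = 0.157). Uqcc2 and Uqcc3, which act with it, gave 0.018 and 0.053.

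The complex I assembly factors with Ndufaf symbols did not pass the threshold. Ndufaf4, an assembly chaperone, read 9.56, 9.62 and 9.60 in transgenic hepatocytes and 9.74, 9.81 and 9.75 in wild-type hepatocytes. Its groups did not overlap, and the difference was -0.17 (SE 0.053, adjusted p = 0.0648, and 0.00875 with the trend). Ndufaf7, a methyltransferase that modifies a core subunit, gave -0.16 (adjusted p = 0.115). Ndufaf1, Ndufaf3 and Ndufaf5 gave -0.044, 0.064 and -0.098.

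Other genes of the respiratory system were taken from 7 lists, of which 83 genes were measured: 3 were called higher and 16 lower, against 6.83% and 9.05% of all genes. Few of the 83 were under the array median. Of 1207 genes with a mean of 10 or more outside the subunits and assembly factors, 133 were called higher and 182 lower. Most of the 83 had a mean under 10 (Ppara 8.43 and Coq5 8.57, for example), so these sets were not matched in level. The difference between their shares was not tested. Among 14 complex IV assembly genes 0 were called higher and 2 lower, with a median of -0.088. Coa6, which helps to deliver copper to complex IV, read 9.35, 9.22 and 9.31 in transgenic hepatocytes and 9.53, 9.60 and 9.63 in wild-type hepatocytes, without overlap (difference -0.29, adjusted p = 0.0152). Cox20, a chaperone of the copper-carrying subunit, gave -0.21 (adjusted p = 0.0348). Among 11 further assembly genes of complexes I, II, III and V, 1 was called higher and 1 lower, with a median of -0.020. Atpaf2, which assembles the F1 head, gave 0.24 (adjusted p = 0.0224), and Acad9, a complex I assembly factor, -0.25 (adjusted p = 0.0361).

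The lists of ubiquinone synthesis and of carriers, porins and uncouplers held 1 and 2 called genes, all lower in transgenic cells. Over all genes, 6.83% were called higher and 9.05% lower. Of 9 coenzyme Q synthesis genes, 0 were called higher and 1 lower (median -0.079). Coq5, a methyltransferase of that pathway, read 8.33, 8.31 and 8.31 in transgenic hepatocytes and 8.70, 8.90 and 8.87 in wild-type hepatocytes. All transgenic arrays were below all wild-type arrays, and the difference was -0.51 (1.42-fold, adjusted p = 0.00202). Of 11 carriers, porins and uncouplers, 0 were called higher and 2 lower (median -0.056). Slc25a10, the mitochondrial dicarboxylate carrier, read 9.29, 9.31 and 9.21 in transgenic hepatocytes and 9.77, 9.78 and 9.70 in wild-type hepatocytes. Its groups stood well apart, at -0.48 (1.39-fold, adjusted p = 0.00118). Atpif1, the inhibitor that stops complex V from running backwards, read 8.46, 8.22 and 8.47 in transgenic hepatocytes and 8.83, 8.82 and 8.90 in wild-type hepatocytes on its brighter probe set. The groups did not overlap there, at -0.47 (adjusted p = 0.00566), but the dimmer probe set gave 0.20 (adjusted p = 0.281) and the mean of both -0.13 (adjusted p = 0.273), so the fall rests on 1 probe set.

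The called genes in the lists of the tricarboxylic acid cycle and of other electron entry were lower in transgenic cells. Of 15 tricarboxylic acid cycle genes, 0 were called higher and 3 lower, against 6.83% and 9.05% of all genes, with a median of -0.12. Cs, citrate synthase, read 9.67, 9.70 and 9.55 in transgenic hepatocytes and 9.88, 9.96 and 9.87 in wild-type hepatocytes, without overlap (difference -0.26, adjusted p = 0.0267). Suclg2, a subunit of succinyl-CoA synthetase, gave -0.25 (adjusted p = 0.0378), and Idh3a, a subunit of isocitrate dehydrogenase, -0.19 (adjusted p = 0.0467), with another of its 3 probe sets at 0.075. Of 8 other genes of electron entry, 0 were called higher and 3 lower, against the same shares of all genes, with a median of -0.097. Prodh, proline dehydrogenase, read 9.83, 9.83 and 9.78 in transgenic hepatocytes and 10.33, 10.37 and 10.31 in wild-type hepatocytes. The genotypes were separated by many times their spread, at -0.52 (SE 0.052, 1.43-fold, adjusted p = 0.000520). Gpd2, the mitochondrial glycerol phosphate dehydrogenase, gave -0.35 (adjusted p = 0.0260), and Aifm1, a flavoprotein of the intermembrane space, -0.21 (adjusted p = 0.0481).

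Of 15 genes listed as regulators of respiratory genes or as factors of mitochondrial DNA and its expression, 2 were called higher and 4 lower. Over all genes the shares were 6.83% and 9.05%, and the median difference of the 15 was -0.21. Ppara, the nuclear receptor that drives fatty acid oxidation, read 8.13, 7.99 and 8.01 in transgenic hepatocytes and 8.71, 8.98 and 8.74 in wild-type hepatocytes. It had the largest difference of the 7 lists, -0.77 (1.70-fold, adjusted p = 0.000748), without overlap. Rxra, its partner receptor, gave -0.38 on the brighter of its probe sets (adjusted p = 0.00610) and 0.061 on the other (adjusted p = 0.542). Tfb2m, which starts transcription of mitochondrial DNA, read 7.87, 7.85 and 7.91 in transgenic hepatocytes and 8.15, 8.14 and 8.25 in wild-type hepatocytes, without overlap, at -0.30 (adjusted p = 0.0103). A further 3 calls fall outside the naming rule and are given after their values were seen: Tfam, which packages mitochondrial DNA, at -0.25, and the coactivator Pprc1 and the ETS factor subunit Gabpb1, at 0.29 and 0.26. The other probe set of Gabpb1 gave -0.16 (adjusted p = 0.381), and the mean of both 0.053 (adjusted p = 0.682), so that rise rests on 1 probe set. Ppargc1a, the coactivator best known for raising respiratory genes, was not called, at -0.21 (SE 0.14, 95% interval -0.53 to 0.12), and its mean was under the array median. The related coactivator Ppargc1b was not called either, at -0.37 with groups that did not overlap (adjusted p = 0.0577, and 0.0217 with the trend). Nrf1 and Esrra, transcription factors of respiratory genes, gave 0.075 and 0.063, and Gabpa, which pairs with Gabpb1, -0.25 (adjusted p = 0.124).

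Of the called genes in these lists, Coq5, Slc25a10, Atpif1, Prodh, Ppara, Rxra and Tfb2m kept the call with any 1 array left out, and the others lost it without at least 1 array. Without transgenic replicate 1, limma no longer called Acad9, Aifm1, Atpaf2, Cox20, Cs, Gabpb1, Gpd2, Idh3a, Pprc1, Suclg2 and Tfam (adjusted p 0.0544 to 0.142). Without transgenic replicate 2 it did not call Aifm1, Coa6, Cox20, Gabpb1, Idh3a, Suclg2 and Tfam (0.0536 to 0.137), and without transgenic replicate 3 Acad9, Aifm1, Atpaf2, Cox20, Cs, Gabpb1, Gpd2, Idh3a and Suclg2 (0.0584 to 0.140). Without wild-type replicate 1 the calls of Acad9, Aifm1, Atpaf2, Cs, Gpd2 and Idh3a were lost (0.0519 to 0.0808). The fit without wild-type replicate 2 lost Acad9, Aifm1, Coa6, Cox20, Cs, Gabpb1, Gpd2, Idh3a, Suclg2 and Tfam (0.0508 to 0.112), and that without wild-type replicate 3 lost Acad9, Aifm1, Atpaf2, Coa6, Cox20, Cs, Idh3a, Suclg2 and Tfam (0.0574 to 0.145). All of these fits had fewer arrays, and every gene named kept its direction.

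**Figure D5:**
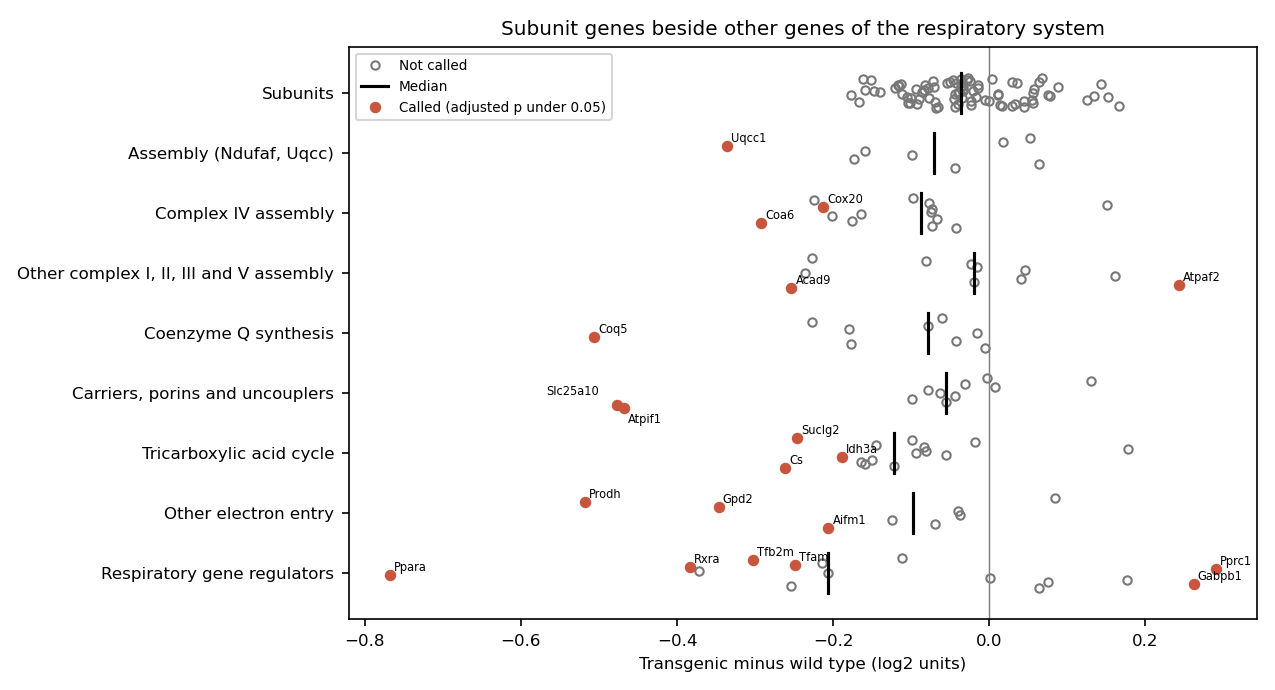
Difference of each gene, transgenic minus wild type (log2 units), for the subunits, the assembly factors and 7 lists of other respiratory genes; filled points are called genes and bars are medians. The 81 subunits stay between -0.18 and 0.17 with none called, while called genes of the other lists reach -0.77 (Ppara) and -0.52 (Prodh).

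The promoters of the subunits carry binding motifs of such regulators, and were read from RefSeq windows of 300 bases (250 before each gene's start and 50 after it, assembly GRCm38.p6). A window was found for 66 of the 81 subunits, 5 of them with several, and for all 8 assembly factors. The motifs were searched on both strands as GCGC, any 2 bases and GCGC again for NRF1, CCGGAAG for ETS factors such as GABPA, CAAGGTCA for ESRRA and AAGATGGC for YY1 (CCGGAAG and AAGATGGC can share AAG, which happened in 0 of the subunits). NRF1's motif was in 16 of the 66 subunits (24.2%), beside 12.4% of the genes tested that have a window and 6.23% of all windows. The ETS motif was in 17 (25.8%), beside 16.3% and 8.86%. The YY1 motif was in 9 (13.6%), beside 4.39% and 2.75%, and the ESRRA motif in 4 (6.06%), beside 1.46% and 1.56%. In all, 37 subunits held at least 1 of the 4 motifs and 8 held several kinds. The median difference was -0.038 in subunits with the NRF1 motif and -0.037 in those without it, and -0.024 and -0.038 for the ETS motif. For YY1 it was -0.036 with and -0.038 without, and for ESRRA -0.063 with and -0.037 without. A match is a description of these letters and not a bound site.

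The 120 bases before the start are shown, 5′ to 3′ on the gene's strand, for the subunits Cox6a1, Sdhd and Atp5j (one of its windows), because each holds motifs of 2 kinds there, and for the called assembly factor Uqcc1, which holds none of the 4 in that stretch. Capitals mark the motif letters: NRF1 then ETS in Cox6a1 and Sdhd (where ETS reads as CTTCCGG, the other strand), and YY1 then ETS in Atp5j.
Cox6a1, chr5:115348959-115349078 (minus strand): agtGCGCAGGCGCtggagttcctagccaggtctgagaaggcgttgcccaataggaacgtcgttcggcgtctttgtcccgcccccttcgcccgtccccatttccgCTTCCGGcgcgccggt
Sdhd, chr9:50603850-50603969 (minus strand): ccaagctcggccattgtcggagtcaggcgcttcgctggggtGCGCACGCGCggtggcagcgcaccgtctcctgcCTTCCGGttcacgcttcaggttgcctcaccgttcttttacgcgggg
Atp5j, chr16:84834977-84835096 (minus strand): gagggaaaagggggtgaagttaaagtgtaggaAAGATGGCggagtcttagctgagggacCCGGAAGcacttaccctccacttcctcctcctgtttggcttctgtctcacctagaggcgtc
Uqcc1, chr2:155930311-155930430 (minus strand): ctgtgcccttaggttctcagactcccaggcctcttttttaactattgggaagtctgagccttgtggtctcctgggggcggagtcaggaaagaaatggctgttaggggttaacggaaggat

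Like every other subunit, the 3 with these paired motifs were not called: Cox6a1 differed by 0.055, Sdhd by -0.024 and Atp5j by 0.033 (95% interval of the last -0.098 to 0.16). Uqcc1, shown because it was called, was lower in transgenic cells by 1.26-fold. With genes picked in this way the motifs cannot be set against the differences, and a link between them was not tested.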

How the data were processed

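The 6 arrays of primary hepatocytes that were compared comprised 3 transgenic and 3 wild type. The table deposited by the authors holds 1 log2 value for each probe set and array, produced by RMA within Expression Console of Affymetrix, per the submitters' processing notes. Its version and the set of arrays normalized jointly are not stated there. RMA corrects background, gives every array the same distribution and combines the probes of a set, which hides changes common to most transcripts and narrows differences at either end of the signal range. Arrays yield no read depth; with 3 per genotype, it is their number that limits precision. The array medians over all probe sets were 5.61 to 5.64, and arrays correlated at 0.9980 to 0.9982 among transgenic, 0.9976 to 0.9982 among wild-type and 0.9933 to 0.9940 between genotypes.

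There were 22690 probe sets in total: 64 controls, 20380 with 1 gene symbol, 691 with several and 1555 with none. Only those with 1 symbol were used, and the brightest by mean over the 6 arrays represented each gene, giving 12393 genes. No other per-sample column was left aside (0). Differences, transgenic minus wild type, were tested two-sided with limma 3.58.1 in R 4.3.3 (lmFit and eBayes), with Benjamini-Hochberg adjustment over all genes and a threshold of 0.05. Intervals are 95%, from limma's moderated SE, and not adjusted; the folds of 1.3 and 1.5 used to describe them were chosen after the values were seen. Files were read with the data.table package, version 1.17.8, and the procedure was tested on simulated data.

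Named genes were, in each complex, those past the threshold, the member with the highest mean, complex II, cytochrome c, isoform pairs, members whose probe sets disagree, Mtdh, and up to 3 called genes with the smallest p from each further list. As no subunit passed the threshold, the subunits with the smallest p were named after their values were seen, as were members given to illustrate a role. The members and lists were chosen with earlier results of these data known. Alternatives tried were averaging probe sets per gene, testing all probe sets, leaving out probe sets that may match several transcripts, a filter on dim genes, leaving out isoforms of other tissues, centring, a repeated quantile normalization, an intensity trend, a robust prior, array weights, no moderation, the replicate number as a block, and leaving out each array. Gene names and promoter sequences came from tables of the RefSeq assembly GRCm38.p6, in which all 89 members matched by gene ID.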

Additional observations from a re-analysis of the deposited data

How the results depend on the processing

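By its brightest probe set, no subunit was called higher or lower with all probe sets tested (dimmer ones of Ndufs7, Ndufa12, Ndufc2 and Atp5pb were), a robust prior, array weights, centring, or without isoforms of other tissues. Leaving out each array in turn gave 0 and 0 subunits, 1267 to 1700 genes in all (1967 in the full fit, 1267 without transgenic replicate 1), a subunit median of -0.049 to -0.026 (-0.049 without wild-type replicate 2), a complex V median of -0.038 to -0.020 and an assembly factor median of -0.12 to -0.032 (-0.12 without transgenic and -0.032 without wild-type replicate 3). The complex IV median ran from -0.025 to 0.023, above 0 without transgenic replicate 1. With probe sets averaged per gene, 1 subunit was called higher (Ndufs7, 1 in complex I) and 1 lower (Atp5pb, 1 in complex V), Ndufab1 was at -0.018, and the medians were -0.021 for subunits, -0.0066 for complex III and -0.017 for complex V. Without probe sets that may match several transcripts, 2 were called lower (Atp5pb and Ndufc2, 1 each in complexes I and V). After a repeated quantile normalization 1 was called higher (Cox7a2l, 1 in complex IV), and the medians were -0.0074 for complex III and -0.060 for complex V. With genes at or above the median level only, 3 were called higher and 4 lower: 1 and 3 in complex I, 0 and 1 in complex III, 1 and 0 in complex IV, 1 and 0 in complex V, and 3 assembly factors lower. With the intensity trend 3 were called higher and 12 lower: 1 and 6 in complex I, 0 and 2 in complex III, 1 and 1 in complex IV, 1 and 2 in complex V, and Cycs lower, and 2 assembly factors lower. Without moderation 1271 genes were called, with 3 subunits higher and 6 lower: 1 and 4 in complex I, 1 and 1 in complex III, 1 and 1 in complex V, and 2 assembly factors lower. The fits with a trend and without moderation change only the spread assumed for each gene.

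Replicate numbers did not pair the samples: deviations of same-numbered arrays correlated at -0.010, -0.0097 and 0.10. With the replicate number as a block, 1505 genes, 0 subunits higher, 0 subunits lower and 1 assembly factor (Uqcc1) were called, and the subunit median stayed at -0.036. Among the further lists, Coq5, Ppara, Prodh, Slc25a10 and Tfb2m were called under all 18 alternatives; Aifm1 and Idh3a kept the call in 5, Suclg2 in 9, Cox20 in 10, Acad9 and Tfam in 11, Cs in 12, Atpaf2 and Gpd2 in 13, Coa6 in 15, Atpif1 in 16 and Rxra and Pprc1 in 17 of them, and Gabpb1 in 10 of 17.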

Other observations

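The array also carries a probe set for ND5, a complex I subunit encoded in mitochondrial DNA, which was looked at after its values were seen and is no member by the naming rule. It read 13.52, 13.48 and 13.56 in transgenic hepatocytes and 13.41, 13.54 and 13.58 in wild-type hepatocytes, with overlapping groups, a difference of 0.0054 and an adjusted p of 0.972.

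Another 8 probe sets name a member among several symbols and stayed out of the gene comparison. Limma called 0 of these 8, 1 had an unadjusted p under 0.05, and the lowest adjusted p was 0.0717, for a probe set of Ndufb4 and its near-identical copies with a difference of -0.18.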
